A study of Mus musculus with 2 samples.

Results

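The Ebf genes of the mouse, Ebf1, Ebf2, Ebf3 and Ebf4, were described by their DNase I hypersensitive sites in embryonic limb. Their regions were all peaks within 500 bp of a transcription start site (TSS) of a member, all other peaks inside the 4 gene bodies, and distal peaks. Distal means over 1 kb away from any TSS of a protein-coding gene, and each such peak belongs to the gene whose TSS is nearest, up to 100 kb away. By this rule 94 of the 127632 peaks shared by both libraries belonged to the Ebf genes, 4 of 21938 protein-coding genes. Before the requirement of sharing, 202 of 208965 peaks of replicate 1 and 146 of 196870 peaks of replicate 2 did. A peak was called shared when a peak of the other library overlapped at least 50% of its 150 bp.

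EBF proteins, also called COE factors, are transcription factors with a zinc-containing DNA-binding domain and a helix-loop-helix dimerization domain, and they bind a palindromic DNA site as dimers. In mice Ebf1 is required for the specification of B lymphocytes, Ebf2 marks precursors of brown fat and acts in osteoblasts and in neuron migration, and Ebf3 acts in neurons and in muscle. Ebf4 is the least studied of the family. In mouse embryos Ebf1, Ebf2 and Ebf3 are also transcribed in limb mesenchyme and connective tissue.

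DNase-seq maps stretches of open chromatin by sequencing the ends that the nuclease DNase I cuts. The series holds 1 group of 2 libraries, replicate 1 and replicate 2, from limbs of healthy B6NCrl mouse embryos at embryonic day 14.5, with males and females pooled and no mutation or treatment named. Both libraries carry the same donor identifier, so they may or may not stem from separate embryos, and the spread between them may be technical. There is no second condition, so the members are set beside all protein-coding genes or all shared peaks, with no test.

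Each peak carries a signal, a whole number in a unit of the authors' own, with a median over all peaks of 42.0 in replicate 1 and 31.0 in replicate 2. Because the scaling is not known, strength is also given as a percentile, the peak's rank by signal within its own list. All 8 limb mesenchyme markers listed (Prrx1, Prrx2, Twist1, Msx1, Hoxa13, Hoxd13, Pitx1 and Tbx5) had a shared TSS peak. So had 1 of 4 B lineage markers (Vpreb1), 1 of 4 adipocyte markers (Plin1) and 2 of 4 neuron markers (Tubb3 and Snap25). The share over all protein-coding genes was 64.6%, and lists this short describe only the genes named. The limb is a mixture of cell types, and a site open in fewer cells cannot be told apart from a site less open in every cell. Read depth is unknown, and intervals given below cover only the counting of peaks.

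The 3 sequences below are the strongest shared TSS peaks of Ebf1, Ebf3 and Ebf4, shown because they are the most open sites of Ebf1 and Ebf3 and the most open TSS site of Ebf4. They are read from the GRCm38 (mm10) genome of RefSeq in the direction of transcription, and capitals mark CG dinucleotides. The Ebf3 peak is shown without its stretch of exon.
Ebf1 TSS peak, chr11:44617156-44617305, plus strand: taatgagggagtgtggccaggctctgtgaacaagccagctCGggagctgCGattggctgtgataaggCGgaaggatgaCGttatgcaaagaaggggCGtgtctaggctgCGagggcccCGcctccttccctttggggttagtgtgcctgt
Ebf3 TSS peak, chr7:137314446-137314565, minus strand: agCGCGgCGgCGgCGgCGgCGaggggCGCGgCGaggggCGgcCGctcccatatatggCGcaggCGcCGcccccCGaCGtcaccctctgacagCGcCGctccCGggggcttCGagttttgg
Ebf4 TSS peak, chr2:130295016-130295165, plus strand: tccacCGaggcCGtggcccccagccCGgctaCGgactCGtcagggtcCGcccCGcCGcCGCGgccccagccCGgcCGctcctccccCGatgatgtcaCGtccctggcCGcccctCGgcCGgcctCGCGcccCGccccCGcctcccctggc
The Ebf1 sequence holds 7 CG dinucleotides in 150 bases. The Ebf3 sequence holds 21 in 120 bases and the Ebf4 sequence 21 in 150 bases. Of the 3, those of Ebf3 and Ebf4 are the richer in G or C, at 78.3% and 82.0%, with 58.7% in Ebf1.

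The next 4 sequences are the shared distal peak of each member with the highest mean percentile over both libraries, and capitals mark the letters AGNNGGCNC, taken from the core of the motif of CTCF, a zinc-finger protein that binds insulators and chromatin loop anchors.
Ebf1 distal peak, chr11:44611016-44611165, plus strand: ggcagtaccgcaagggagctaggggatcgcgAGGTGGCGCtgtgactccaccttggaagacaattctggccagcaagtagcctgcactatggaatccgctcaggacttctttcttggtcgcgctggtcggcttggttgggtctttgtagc
Ebf2 distal peak, chr14:67211816-67211965, plus strand: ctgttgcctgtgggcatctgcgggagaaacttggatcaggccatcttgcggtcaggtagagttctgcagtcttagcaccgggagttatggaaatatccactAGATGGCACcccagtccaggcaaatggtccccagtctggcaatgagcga
Ebf3 distal peak, chr7:137321596-137321745, minus strand: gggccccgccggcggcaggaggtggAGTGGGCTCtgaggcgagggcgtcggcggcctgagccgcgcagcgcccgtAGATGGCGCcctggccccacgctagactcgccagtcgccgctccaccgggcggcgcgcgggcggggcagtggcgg
Ebf4 distal peak, chr2:130291596-130291745, plus strand: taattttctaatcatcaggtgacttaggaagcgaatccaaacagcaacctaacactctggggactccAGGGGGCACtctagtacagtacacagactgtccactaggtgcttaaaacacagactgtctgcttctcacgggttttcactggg
All 4 lie upstream of their gene and all 4 hold the core, the Ebf3 peak at 2 places. The core was chosen after these sequences had been read, so its presence in them is a description only. In replicate 2 alone the peak of Ebf2 starting at 67188456 stood higher, with a signal of 78 against 74, and it does not hold the core.

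The last 3 sequences are the only shared member peaks that hold the full EBF site, TCCCNNGGGA, the palindrome that EBF dimers bind, here in capitals.
Ebf2 intron peak, chr14:67396636-67396785, plus strand: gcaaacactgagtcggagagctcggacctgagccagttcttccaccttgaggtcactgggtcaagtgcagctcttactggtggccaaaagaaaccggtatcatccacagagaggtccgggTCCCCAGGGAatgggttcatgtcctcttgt
Ebf3 intron peak, chr7:137294576-137294725, minus strand: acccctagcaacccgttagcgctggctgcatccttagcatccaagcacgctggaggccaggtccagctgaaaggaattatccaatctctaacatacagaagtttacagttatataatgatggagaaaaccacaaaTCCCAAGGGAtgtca
Ebf4 intron peak, chr2:130362736-130362885, plus strand: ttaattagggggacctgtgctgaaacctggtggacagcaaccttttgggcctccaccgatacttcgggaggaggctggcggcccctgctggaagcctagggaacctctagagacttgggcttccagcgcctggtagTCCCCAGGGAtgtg

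Ebf1 to Ebf4 all had an open start in both libraries. A shared TSS peak was found at 4 of 4 members, against 14167 of 21938 protein-coding genes, or 64.6%. At least 3 shared TSS peaks were found at 3 of 4 members (Ebf1, Ebf2 and Ebf4), against 9.64% of all protein-coding genes. That count makes no allowance for the number of distinct TSS, 5 at Ebf1, 4 at Ebf2, 6 at Ebf3 and 2 at Ebf4. Several peaks can also lie in 1 open region, as the 4 of Ebf1 did in its widest hotspot of replicate 1. The family holds 11 shared TSS peaks, with a median signal of 81.0 in replicate 1 and 55.0 in replicate 2. Their median G or C content was 70.0%, against 64.0% over all 22238 shared TSS peaks. Their median ratio of observed to expected CG dinucleotides was 0.891, against 0.758.

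Ebf1 (ENSMUSG00000057098.14, plus strand, chr11:44617317-45008091) is the longest member at 391 kb, with 5 distinct TSS. Its strongest TSS peak, just upstream of the first TSS and near the start of the noncoding gene Gm37695, reached a signal of 129 in replicate 1 and of 118 in replicate 2. An opening there cannot be given to Ebf1 alone. The peak starting at 44617536, in exon 1, had 64 and 35 in replicates 1 and 2. The peak at 44617916, also in exon 1, had 60 and 30. The peak at 44618376, in intron 1, had 80 and 54. The first peak was thus the highest of the 4 in both libraries, at percentiles 98.3 and 99.4, and the peaks in exon 1 were the lowest in both. Those exon peaks overlap repeats over 47.3% and 52.7% of their length.

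Ebf2 (ENSMUSG00000022053.13, plus strand, chr14:67233292-67430918) spans 198 kb with 4 distinct TSS. Its strongest TSS peak lies 1.30 kb inside the gene at a downstream TSS, where replicate 1 gave a signal of 123 and replicate 2 of 111. The peak at the outermost start, at 67233296, had 81 and 40. The peak at 67232896, further upstream, had 42 and 23. The order of the 3 peaks was the same in both libraries, and the downstream start stood highest in both, at percentiles 97.3 and 98.8. The noncoding gene Gm20675 starts near both weaker peaks, so an opening there cannot be given to Ebf2 alone.

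Ebf3 (ENSMUSG00000010476.14, minus strand, chr7:137193673-137314445) spans 121 kb with 6 distinct TSS, of which only the outermost group carried a shared TSS peak. That peak reached 132 in replicate 1, the highest of any member peak there, and 104 in replicate 2. Replicate 1 had 1 further TSS peak, with signal 57 at 137313556, that replicate 2 lacked. Replicate 2 had 1, with signal 36 at 137267516, at a downstream start, that replicate 1 lacked.

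Ebf4 (ENSMUSG00000053552.14, plus strand, chr2:130295169-130370481) is the shortest member at 75.3 kb, with 2 distinct TSS less than 1 kb apart. Its 3 shared TSS peaks had signals of 93, 84 and 62 in replicate 1 and of 61, 56 and 55 in replicate 2, in order from upstream to downstream. Ebf4 had the lowest of the 4 strongest TSS peaks in both libraries, at percentiles 91.1 and 87.3.

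**Figure D1:**
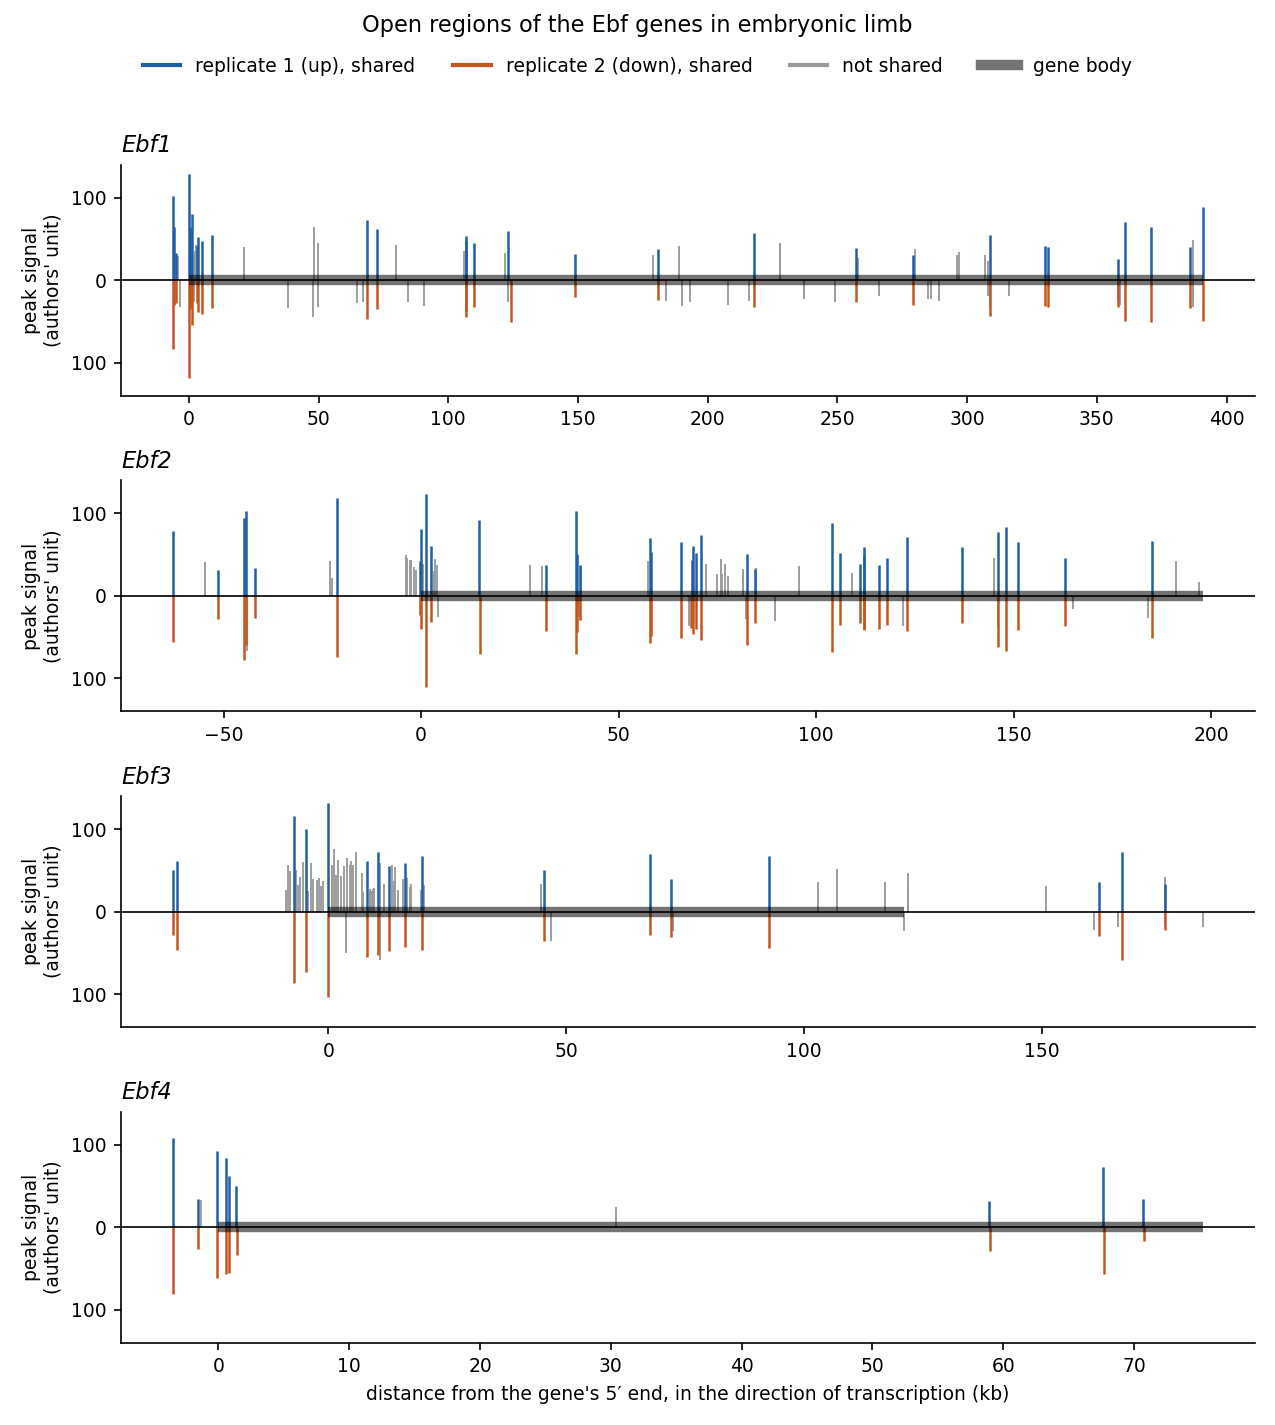
Peaks of the Ebf genes by distance from the gene's 5′ end in kb (horizontal axis), with the peak signal in the authors' unit (vertical axis), replicate 1 drawn upward and replicate 2 downward. Coloured lines are the 94 shared peaks, grey lines are peaks found in 1 replicate, and the bar is the gene body; the 29 shared gene body peaks of Ebf2 spread along its length, while replicate 1 of Ebf3 crowds around the start.

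Away from the starts the members differed widely in number of open sites. Ebf2 had the most shared peaks, 38 (3 TSS, 29 gene body, 6 flanking). Ebf1 had 30 (4 TSS, 22 gene body, 4 flanking), Ebf3 had 17 (1 TSS, 9 gene body, 7 flanking) and Ebf4 had 9 (3 TSS, 4 gene body, 2 flanking). Of all protein-coding genes, 99.2% had fewer shared peaks than Ebf2, 98.4% fewer than Ebf1, 93.8% fewer than Ebf3 and 81.7% fewer than Ebf4. Neither library alone gave this order. In replicate 1 alone Ebf3 had the most, with 71 peaks, before Ebf2 with 69, Ebf1 with 51 and Ebf4 with 11. In replicate 2 alone Ebf1 had the most, with 60, before Ebf2 with 49, Ebf3 with 28 and Ebf4 with 9.

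A longer gene has room for more peaks, so peaks were also counted per length. Ebf2 had 14.7 shared gene body peaks per 100 kb, against a median of 4.36 over 5007 genes of at least 50 kb, and 97.2% of those genes lay below it. Ebf3 had 7.45 per 100 kb (75.4% of genes below), Ebf1 5.63 (61.9% below) and Ebf4 5.31 (59.2% below). By shared peaks per length, then, Ebf2 lay far up the distribution and Ebf1 and Ebf4 near its middle. The lead of Ebf2 over Ebf3 was not seen in both libraries. Replicate 1 had 43 gene body peaks in the 121 kb of Ebf3 and 50 in the 198 kb of Ebf2, and replicate 2 had 12 and 39.

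Of the 94 shared peaks 57 were distal, among them many inside the gene bodies, and as shared peaks they gave the same order. Ebf2 had 21 shared distal peaks, Ebf1 18, Ebf3 16 and Ebf4 2, against a median of 1 over all protein-coding genes. Replicate 1 alone had 68 distal peaks at Ebf3, 47 at Ebf2, 35 at Ebf1 and 4 at Ebf4, and replicate 2 alone 44 at Ebf1, 27 at Ebf2, 26 at Ebf3 and 2 at Ebf4. Per 100 kb of the sequence nearest to each gene's starts, Ebf2 had 11.8, Ebf3 6.98, Ebf1 5.52 and Ebf4 3.85, against a median of 3.91 over 15564 genes. Of these genes 91.0% lay below Ebf2 and 49.4% below Ebf4. The 57 distal member peaks had a median of 49.3% G or C, equal to the median of all 75901 shared distal peaks. Their median CG ratio was higher, at 0.339 against 0.248.

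Most sites inside the genes lay in introns. The 64 shared gene body peaks had a median signal of 53.5 in replicate 1 and 40.0 in replicate 2. Intron 7 of Ebf2, 125 kb long in the annotated transcript used, held 23 shared peaks, or 18.5 per 100 kb. Intron 6 of Ebf1, 226 kb long, held 9, or 3.99 per 100 kb. Intron 6 of Ebf3, 71.5 kb long, held 8, with 29 peaks in replicate 1 and 11 in replicate 2. Intron 6 of Ebf4, 49.0 kb long, held 1. Taken as a ratio, the gap between the long introns of Ebf2 and Ebf1 was smaller in each library alone. Taken as a difference, it was larger in replicate 1 and smaller in replicate 2. Replicate 1 had 30.5 peaks per 100 kb in intron 7 of Ebf2 and 7.98 in intron 6 of Ebf1, and replicate 2 had 22.5 and 11.1.

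The strongest sites of Ebf2 away from its starts are given here as the 5 shared peaks of highest mean percentile. Picked in that way, they are strong in both libraries largely by choice. A distal peak 21.4 kb upstream, at 67211816, reached 119 in replicate 1 and 74 in replicate 2. An intron 7 peak 39.1 kb inside the gene, at 67272316, had 103 and 71, and another 14.7 kb inside, at 67247956, had 92 and 71. A pair of peaks about 44.8 and 44.4 kb upstream had signals of 94 and 103 in replicate 1 and of 78 and 60 in replicate 2. All 5 had a mean percentile over both libraries of 90.3 or more, and no other member had more than 2 distal peaks at or above percentile 90.

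Ebf1 had 1 distal peak of that strength, 6.23 kb upstream at 44611016, which reached 102 in replicate 1 and 83 in replicate 2. Its other strong sites lay far downstream. A peak just past the gene's 3′ end, at 45008216, had 89 and 50. A pair in intron 11, at 44977916 and 44987916, had 70 and 64 in replicate 1 and 50 and 51 in replicate 2, and an intron 6 peak 68.7 kb from the start had 73 and 47. These 4 stood at mean percentiles of 78.6 to 84.7, below the upstream peak in each library.

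Ebf3 had 2 distal peaks of that strength, both upstream of the gene. The one 7.22 kb upstream, at 137321596, reached 116 in replicate 1 and 86 in replicate 2. The one 4.62 kb upstream, at 137318996, had 100 and 73. A site 167 kb from the start, beyond the 3′ end, had 72 and 59. The shared intron peaks of highest mean percentile, 10.4 and 8.10 kb inside the gene, had 72 and 61 in replicate 1 and 53 and 55 in replicate 2. Each library alone had a higher intron peak that was not shared, with 76 in replicate 1 and 59 in replicate 2.

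Ebf4 had 1, 3.50 kb upstream at 130291596, which reached 109 in replicate 1 and 81 in replicate 2, above all of its TSS peaks in each library. In its body the intron 14 peak at 130362736 had 73 and 56, the intron 1 peak at 130296456 had 50 and 33, and the intron 6 peak at 130354036 had 32 and 29. The intron 6 and 14 peaks and a weaker peak in intron 15 lie nearer to a TSS of a neighbouring gene than to one of Ebf4, so they count by their place in the gene body and not as distal peaks.

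**Figure D2:**
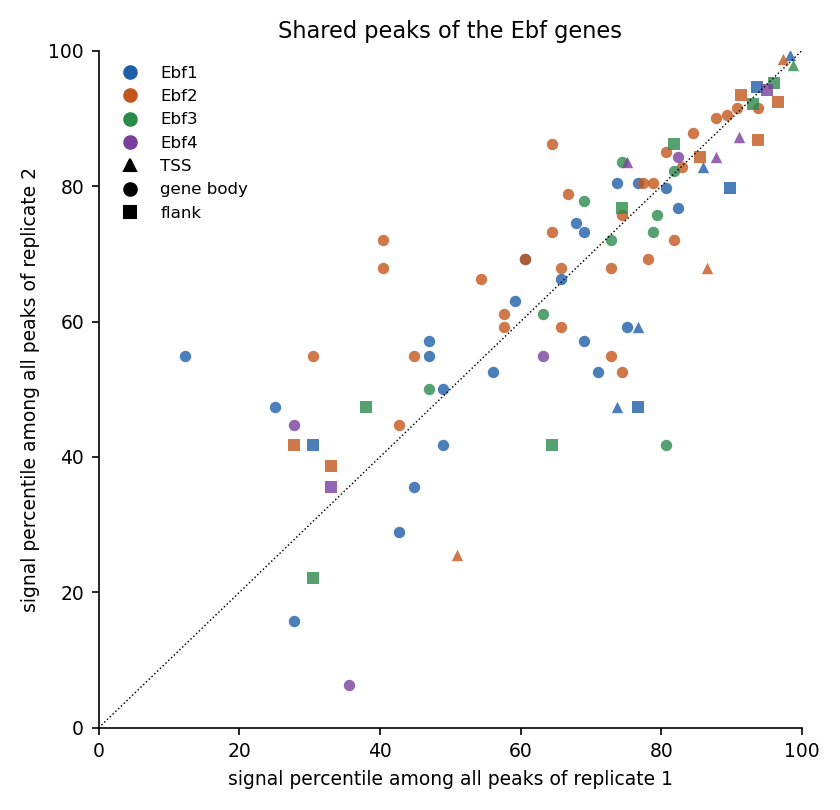
Signal percentile of each of the 94 shared member peaks within the list of replicate 1 (horizontal axis) and of replicate 2 (vertical axis), coloured by gene, with triangles for TSS, circles for gene body and squares for flanking peaks; the dotted line marks equal percentiles. The strongest TSS peaks of Ebf1, Ebf2 and Ebf3 lie at 97.3 or above in both libraries, and weaker peaks scatter on both sides of the line.

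The CTCF core AGNNGGCNC, searched on both strands, was in the 4 distal peaks printed above, and in the strongest shared distal peak of 22.9% of the 14233 protein-coding genes that have one. Since the core was picked from those 4 peaks, their count is fixed by that choice and nothing is read from it. Among all distal member peaks the core was in 9 of 57 (15.8%), against 15.7% of all 75901 shared distal peaks. Those 9 include the 4 peaks it was picked from, which raises the share, so nothing is read from the likeness. Among distal peaks of mean percentile 90 or more it was in 5 of 9 member peaks, against 25.3% of 5843, but without the 4 peaks it was picked from it was in 1 of 5. The longer form AGGGGGCGC was in none of the 57, against 1.19% of all shared distal peaks. A match describes the letters and does not show that CTCF was bound.

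The EBF site TCCCNNGGGA was in 3 of the 94 shared member peaks (3.19%), against 0.811% of all 127632 shared peaks. Among the 57 distal member peaks it was in 1, or 1.75% (95% Wilson interval 0.310 to 9.29%), against 0.818% of all shared distal peaks. These counts are too few to set the members apart from the background. The site in intron 11 of Ebf2 lies in a peak of signal 46 in replicate 1 and 36 in replicate 2. The site in intron 6 of Ebf3, 19.8 kb inside the gene, lies in a peak with 68 and 46, and the site in intron 14 of Ebf4 in the peak with 73 and 56. All 3 lie in introns, and no shared peak of Ebf1 held the site. The shorter form CCCNNGGG, which lies within the full site, was in 3 of the 57 distal member peaks (5.26%), against 5.88%.

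Of the 18 motifs searched on both strands, most were in few of the 57 distal member peaks. The TEAD motif GGAATG was in 9 (15.8%), against 13.3% of all shared distal peaks. The RUNX motif TGTGGT was in 8 (14.0%), against 12.5%, and the SOX motif ACAAAG also in 8, against 11.3%. The E-box CAGCTG was in 9 (15.8%), against 20.1%, 6 of them near Ebf3, while the E-box CATATG was in 5 (8.77%, interval 3.81 to 18.9%), against 3.52%. The HOX13 motif CCAATAAA was in 2 (3.51%, interval 0.968 to 11.9%), both near Ebf2, against 0.863%. The homeodomain motif TAATTA was in none, against 2.65%. The CATATG and HOX13 intervals do not hold the value of all shared distal peaks, but peaks of 1 gene are not independent and the intervals do not allow for the number of motifs searched.

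The libraries differed most at Ebf3. Of its 71 peaks in replicate 1, 17 were shared, or 23.9% (95% Wilson interval 15.5 to 35.0%), against 61.2% of all peaks of replicate 1. Of its 28 peaks in replicate 2, 17 were shared, or 60.7%, against 65.0% of all peaks of replicate 2. Ebf1 had 30 of 51 shared in replicate 1 (58.8%) and 30 of 60 in replicate 2 (50%), Ebf2 38 of 69 (55.1%) and 38 of 49 (77.6%), and Ebf4 9 of 11 (81.8%) and 9 of 9. Over the family 94 of 202 (46.5%) and 94 of 146 (64.4%) were shared. Of the 54 unshared Ebf3 peaks of replicate 1, 52 lay outside every hotspot of replicate 2, a hotspot being one of the wider open regions that the authors called with a q-value.

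The surplus of replicate 1 lay at the 5′ end of Ebf3. Joining peaks of replicate 1 no more than 2 kb apart, a step chosen after the values were seen, gave a run of 29.1 kb, chr7:137294236-137323305, that reached 8.86 kb upstream and 20.2 kb downstream of the gene's 5′ end. Replicate 1 had 52 peaks there and replicate 2 had 10, and the run ranked 4 by peaks among 121641 such runs of replicate 1. Hotspots covered 75.5% of it in replicate 1 and 8.90% in replicate 2. The peaks of replicate 1 started a median of 520 bp apart, and those of replicate 2 a median of 3300 bp apart.

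Within this run 8 peaks were shared. In replicate 1 the 8 shared peaks had a median signal of 70.0 and the 44 unshared ones a median of 41.0, which is just under the median of 42.0 over the whole list. Signals ran from 24 to 132 in replicate 1 and from 43 to 104 in replicate 2. No peak of replicate 2 in the run was therefore weaker than 43, although the median of its whole list was 31.0. The sequence of the run had 50.1% G or C and a CG ratio of 0.588, against 47.6% and 0.268 in the rest of the gene. Unshared peaks of replicate 1 had a median CG ratio of 0.537, against 0.603 for shared ones.

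**Figure D3:**
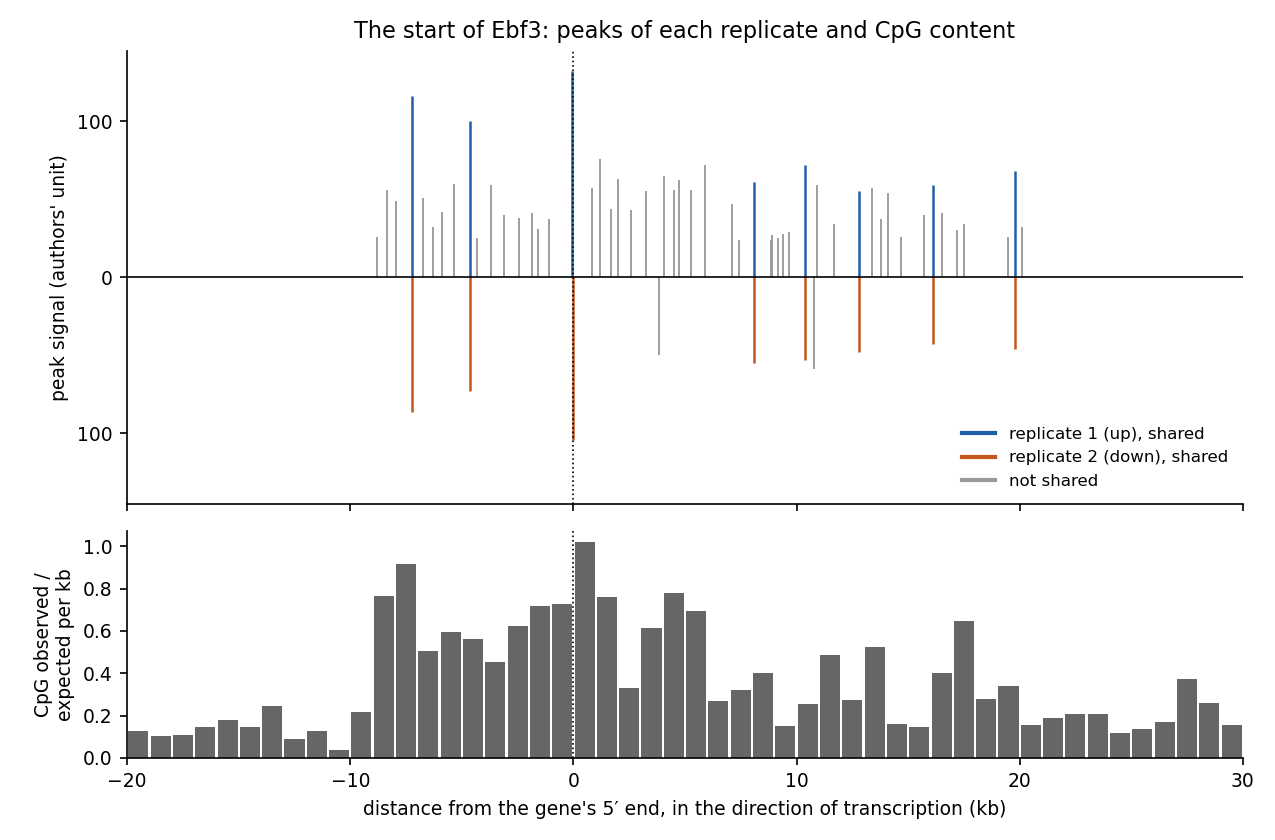
Upper panel, peaks of replicate 1 (up) and replicate 2 (down) around the 5′ end of Ebf3 by signal in the authors' unit; lower panel, observed over expected CG dinucleotides in each kb; both against distance from the 5′ end in kb, in the direction of transcription. Replicate 1 fills the 29.1 kb run with 52 peaks and replicate 2 has 10, and the CG ratio is highest in the first kb of the gene, at 1.02.

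Dense runs with such a difference were found at other genes too. Of 57 runs of at least 20 peaks in replicate 1, 24 (42.1%) had a ratio of replicate 2 to replicate 1 peaks at or below the 0.192 of the Ebf3 run. The median ratio was 0.350. Picking runs by their peaks in replicate 1 favours low ratios. Replicate 2 had 36 runs of that size of its own. In these, replicate 1 ranged from no peaks (0 against 34 in a run on chr6) to slightly more than replicate 2 (22 against 20 at Bcl6). Counted within 10 kb of any TSS, a window also chosen after the values were seen, Ebf3 had 41 peaks in replicate 1 and 9 in replicate 2. The difference of 32 was the fifth highest of 21938 protein-coding genes. Among the higher ones were Adamts18 (45 and 3), Zic2 (47 and 5) and Dlx6 (45 and 6). Ebf2 had 14 and 5, a difference that 158 genes reached or passed, itself included. Ebf1 had 18 and 17, Ebf4 had 7 and 6, and the median gene had 4 and 4. Among the 50000 strongest peaks of each list the Ebf3 counts were 8 and 6. The labels name 2 sequencer models, both for replicate 2, and replicate 1 has the longer peak list; their part in the difference was not tested.

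**Figure D4:**
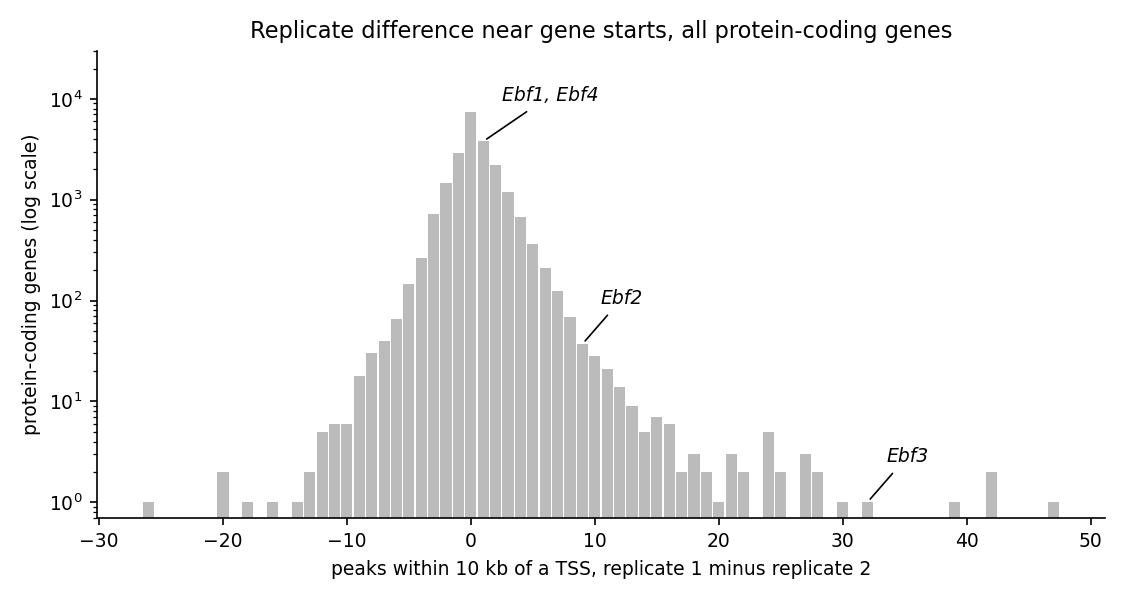
Number of protein-coding genes (vertical log axis) by the difference in peaks within 10 kb of a TSS, replicate 1 minus replicate 2 (horizontal axis), with the Ebf genes marked. Ebf1 and Ebf4 stand at 1, next to the mode at 0, Ebf2 at 9 and Ebf3 at 32, with 4 genes beyond it.

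By mean hotspot cover the gene bodies stood in another order than by shared peaks per length. The 2 measures are unlike, since a shared peak needs both libraries while hotspot cover was taken in each library. They covered 13.5% of Ebf3 in replicate 1 and 2.20% in replicate 2. They covered 7.65% and 6.05% of Ebf2, 2.80% and 3.0% of Ebf1, and 2.54% and 1.94% of Ebf4, against medians over genes of at least 50 kb of 2.71% and 2.15%. By the mean of both replicates 98.2% of those genes lay below Ebf3 and 96.8% below Ebf2, but the rank of Ebf3 rests on replicate 1, while both libraries placed Ebf2 above 6%. The widest hotspot of Ebf3 was 3128 bp in replicate 1, with 4 of its TSS inside, and 584 bp in replicate 2, with 2 inside.

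Partners and targets of EBF proteins were read from lists that are drawn from general knowledge. Of 8 genes of EBF partner proteins, 8 had a shared TSS peak, against the 64.6% of all protein-coding genes. Zfp423, a zinc-finger protein that binds EBF1, had 53 shared distal peaks, Runx1, a factor that acts with Ebf1 in B-cell precursors, 26, and Tcf12, an E protein, 23. The E protein gene Tcf3 had 4, the chromatin remodellers Smarca4 and Chd4 had 2 and 4, the DNA demethylase Tet2 had 6, and Cnot3, of the CCR4-NOT complex, had none. The list median was 5 shared distal peaks, with 6 for the mesenchymal targets, 3 for the B-cell targets, 11 for the limb markers, 3.50 for the neuron markers, 1 for the adipocyte markers and 0 for the B lineage markers, against 1 over all protein-coding genes.

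Of 7 target genes in mesenchyme, fat and muscle, 5 (71.4%) had a shared TSS peak, near that share of all genes. Prdm16, a regulator of brown fat, had 4 shared TSS and 29 shared distal peaks, and Cxcl12, a chemokine of stromal cells, 1 and 21. Foxo1, a forkhead factor, had 2 and 14, Cebpa, a factor of fat cells, 1 and 3, and Tnfrsf11b, which encodes osteoprotegerin, 1 and 0. Atp2a1, the calcium pump of fast muscle, had no TSS peak in either replicate. Pparg, the master regulator of fat cells, had 2 TSS peaks in each replicate, none of them shared.

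Of 8 target genes in B cells, 2 (Vpreb1 and Blnk, 25.0%) had a shared TSS peak, below that share, and among the others Cd79a, Cd79b, Igll1, Blk and Pax5 had none in either replicate. Pax5 nevertheless had 11 shared gene body peaks and 9 shared distal peaks. None of the 219 shared distal peaks of these 3 lists held the full EBF site, against 0.818% of all shared distal peaks, a share at which few or none would be found among so many.

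The genes most like each member in their counts of shared TSS, gene body and distal peaks were found by the Euclidean distance between log2(count + 1) values of the 3 counts, over shared peaks of both libraries. Osbpl10 (4, 23 and 19 peaks) was nearest to Ebf1 at a distance of 0.0962, before Galntl6 and Cuedc1. Prkg1 (3, 32 and 21) was nearest to Ebf2 at 0.138, before Magi2 and Phactr2. Prdm11 and Gtdc1 had the same 3 counts as Ebf3, and Sult2b1, Tmem110 and Cds2 the same as Ebf4. Equal counts do not mean equal positions or strengths.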

How the data were processed

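DNase-seq libraries of limb, 2 replicates of 1 group, were used as deposited. The deposited peak lists give a signal per peak in the authors' own unit, and its scaling is unknown. The deposited hotspot lists give a −log10 q-value per region, and 33.0% of hotspots of replicate 1 and 28.8% of replicate 2 stand at its ceiling of 100. Both were called in each library separately on mm10, per the labels and the deposited file descriptions. Aligner, peak caller and filters: not given in the sources used here. Read depth is unknown, so signals were compared only within a list or by percentile.

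Only peaks on autosomes and sex chromosomes entered (208674 for replicate 1, 196593 for replicate 2). Distances run from a peak's midpoint, genes are those of GENCODE M21, and sequences were read at the coordinates of replicate 1 from the RefSeq GRCm38 genome after peak ends were checked against chromosome lengths. The percentile is the rank of a signal within its list, with ties averaged. Of the members' peaks 6 in replicate 1 and 4 in replicate 2 overlap the one before, so neighbouring peaks are not all separate sites. Python 3.11.15, numpy 2.4.6, pandas 2.3.3, scipy 1.17.1, pysam 0.24.0, samtools 1.23.1 and matplotlib 3.10.9 were used, and the functions for overlap, distance and motif search were tested on simulated data.

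The members, gene lists and motifs were chosen with earlier results of these data known. Named were all shared TSS peaks, the 5 strongest other shared peaks of each gene, every peak with the EBF site, the listed genes and the 3 genes most like each member. The CTCF core, the joined runs and the 10 kb window were added after the values were seen. Alternatives were another overlap rule, the 50000 strongest peaks, each replicate alone, the coordinates of replicate 2, distances from peak edges, hotspots for peaks, other TSS windows, a 50 kb limit, wider windows and a shorter site for the motif, and hotspots at the ceiling. Some genes and 1 sequence are not reported here.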

Additional observations from a re-analysis of the deposited data

How the results depend on the processing

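The 4 members kept a shared TSS peak under every alternative tried for that count. The 94 shared peaks became 31 among the 50000 strongest peaks of each list and 146 to 202 with 1 replicate alone, and stayed between 72 (hotspots for peaks) and 100 (any overlap of 1 bp) otherwise. The 57 shared distal peaks became 20 among the 50000 strongest peaks, 35 within 50 kb and 99 to 154 with 1 replicate alone. Hotspot cover of the gene bodies, pooled over their combined length at 4.59% (SD 1.48, n = 2 replicates), was 2.34% from hotspots at the ceiling alone. These alternatives admit fewer or more regions by construction. The percentage of distal member peaks with the EBF site, 1.75%, ran from 1.01 to 5.26% and did not leave its interval. For Ebf3 the shared regions numbered 8 by hotspots, against 17 by peaks. Its surplus of 32 peaks in replicate 1 was 17 within 5 kb of a TSS, with 13 genes above it, 44 within 20 kb, with 3 genes above it, and 2 among the 50000 strongest peaks. No paired analysis was possible because there is 1 group. Depth is unknown, so a site missing from 1 list was not detected there and is not shown to be closed.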
